A study of Mus musculus with 18 samples.

Results

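Potassium channel subunits are described here as every gene on the array whose RefSeq symbol starts with Kcn, 96 of the 20141 symbols that could be given to probes, of 98 such symbols in the RefSeq table. The symbols cover the pore subunits of voltage-gated, calcium- and sodium-activated, inwardly rectifying and two-pore-domain potassium channels and several of their accessory subunits. The regulator Kcnrg and the noncoding RNAs Kcnq1ot1 and Kcnmb4os1 carry such symbols without being channel subunits and are kept apart. Dorsal root ganglia of C57BL/6J embryos at embryonic day 13.5 were grown as explants, which hold sensory neurons together with Schwann cells, satellite glia and other ganglion cells. The cultures were kept for 12 days on matrigel in growth medium and then moved to myelination medium, and the day counts start at that switch. RNA was taken at day 0, before the switch and labelled as control, and after 10 and 22 days of myelination medium. Each day has 6 one-colour arrays, from 3 batches of ganglia with 2 technical arrays each, and a batch is a pool of embryos of its own. The sample titles call the batches mouse 1 to 3 and use the same numbers at every day. No genotype or agent other than the medium separates the days, and every later culture is also an older one, so the medium and the age of the culture cannot be told apart.

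Potassium channels let potassium leave the cell and so set the resting potential, the width of the action potential and the interval between spikes. In myelinated peripheral axons Kv1 channels lie beside the node under the myelin sheath, held by a complex of cell adhesion and scaffold proteins, and Kv7 channels lie at the node itself. In ganglia the inward rectifier Kcnj10 (Kir4.1) is known as a channel of satellite glia, which take up potassium around the neuron's soma, and two-pore-domain channels carry leak current in sensory neurons.

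Levels are given as the log2 processed signal of a probe minus the 75th percentile of its array, so that 0 stands for the 75th percentile and each step of 1 for a factor of 2. A level belongs to 1 probe, and levels of different genes are not set against each other. Every array held 62976 spots, its 75th percentile lay between 584 and 747 intensity units, and 54.8% to 61.5% of its spots were well above background. The authors' table of processed values puts 12 of its 18 columns under another batch label than the array files do, always within the same day. Both sources give each array the same day, and the batch of an array is the open point. Arrays of a batch lay closer together under the labels in the authors' table (median SD 0.174) than under the other labels (0.211). Batch means lay farther apart under the former (median SD 0.178 against 0.149). The arrays of a day have the same total spread under either labelling, so these 2 comparisons are not separate evidence. They favour the labels in the authors' table without settling the point. Under those labels, array-file batch means mix pools, and fits on them alone treat linked means as separate. The words rose and fell are kept for genes where limma on batch means gave a Benjamini-Hochberg adjusted p under 0.05 over all 22844 features with both placements of the arrays in batches, and the SE and adjusted p printed are the larger of the 2. The number of arrays limits the precision. Among the arrays, 1 of day 0 had a mean level of 3.40 over 18 pan-neuronal markers, and 35 of the 62 tested channel genes had their lowest day 0 level on it. Without it, 7 channel genes rose and 15 fell between day 22 and day 0, against 7 and 13 with all arrays. Over all 22844 features, that fit called 2823 higher and 3905 lower. A day 22 array had a pan-neuronal mean of 3.37 and the lowest day 22 level of 22 channel genes, and the day 22 array lowest in Kcna1 and Kcnj10 had that of 16. The latter had a mean of 3.37 over myelinating Schwann cell markers, against 4.35 to 4.94 on the other day 22 arrays. It also had the highest day 22 means of macrophage (4.46), fibroblast (5.61) and mural markers (3.10). Without the array lowest in Kcna1 and Kcnj10, 7 rose and 14 fell between day 22 and day 0 and none changed between day 22 and day 10 (limma, adjusted p of Kcnh6 0.0649). Over all features, that fit called 3059 higher and 4286 lower between day 22 and day 0, and 155 and 379 between day 22 and day 10. Both arrays left out were chosen after their values were seen.

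Of the 96 genes, 62 were well above background on every one of the 6 arrays of some day and were tested. Of these, 48 were well above background on all 18 arrays and 14 missed it on some. The other 34 were not tested: 11 were not well above background on any array, and 23 were on some. None was below background on all arrays of 1 day and above it on all arrays of another. Detection differed between the classes. All 3 Kv beta genes, all 3 Kv4 genes and all 6 Kv2 and Kv3 genes were tested, against 5 of 15 inward rectifiers and 3 of 10 electrically silent Kv subunits. Kcns1, a silent subunit of sensory neurons, was well above background on 4 of 6 arrays at day 0, 4 at day 10 and 0 at day 22. Kcnq3, a subunit of M-type channels, was above it on 1, 5 and 4 arrays at days 0, 10 and 22. Kcnk18 (TRESK), a leak channel of sensory neurons, was above it on 3, 1 and 0 arrays. Kcnj8, the pore of an ATP-sensitive channel of vascular muscle, was above it on 0, 0 and 1 arrays, and Kcnj3, a G protein-gated rectifier, on 5, 0 and 0. Kcnj11, the pore of the ATP-sensitive channel that Abcc8 completes, was above it on 5, 1 and 0 arrays, and the silent subunit Kcng4 on 0, 5 and 4. Further untested genes were Kcna10, Kcna3, Kcne1, Kcne2, Kcnf1, Kcng2, Kcng3, Kcnh1, Kcnh7, Kcnip2, Kcnj1, Kcnj14, Kcnj16, Kcnj2, Kcnj5, Kcnj6, Kcnj9, Kcnk7, Kcnk9, Kcnmb2, Kcnmb3, Kcnmb4os1, Kcnn1, Kcnq1, Kcns2 and Kcnv2.

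**Figure D1:**
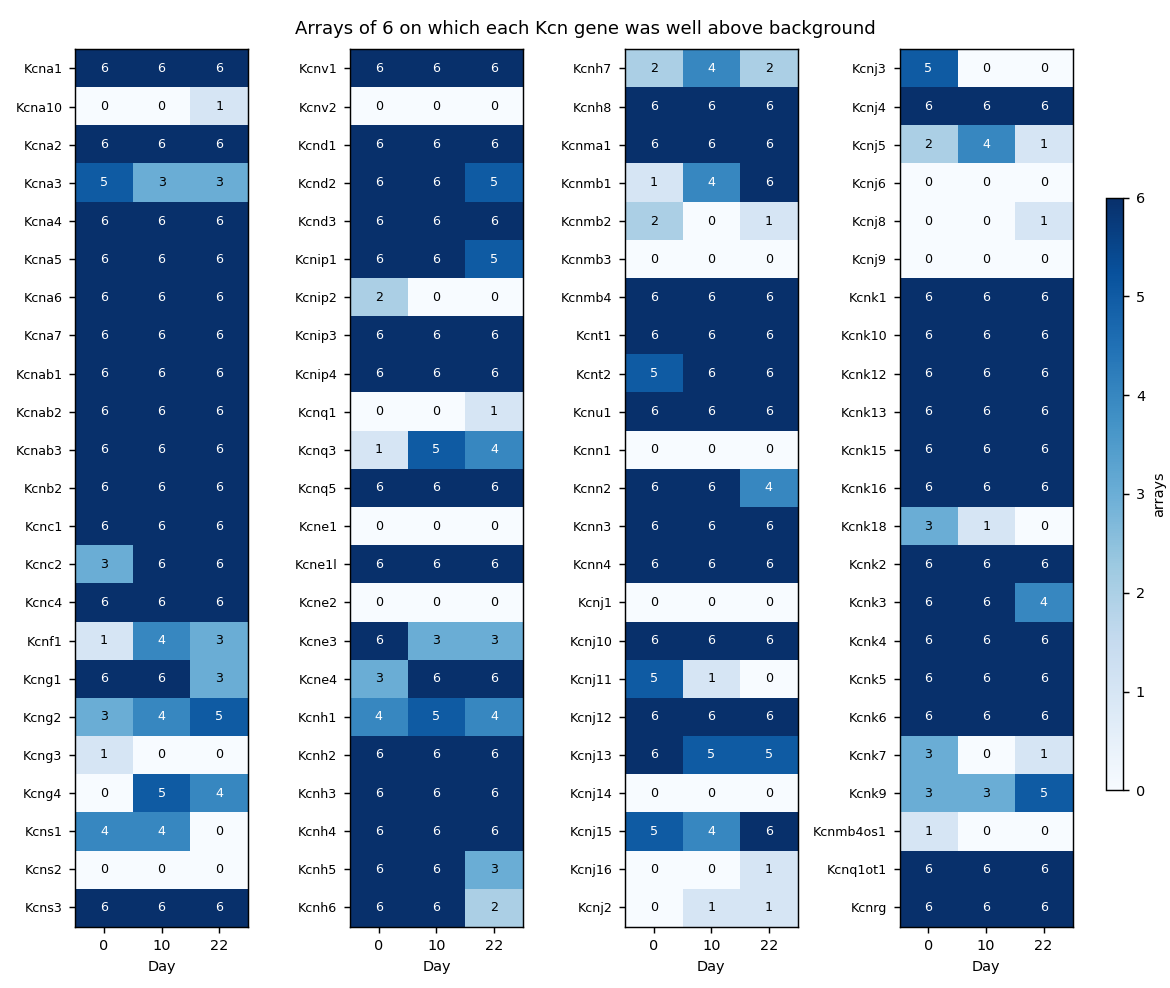
Number of arrays, of 6 per day, on which each of 92 genes was well above background, with genes as rows in 4 columns and days 0, 10 and 22 as the cells of a row. Darker cells mean more arrays, and 45 of the genes shown reached 6 on all 3 days.

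Between day 10 and day 0, 5 of the 62 tested genes rose (Kcnab1, Kcnh2, Kcnip3, Kcnip4 and Kcnk1), beside 5.74% of all features. In the same comparison 4 fell (Kcng1, Kcnh8, Kcnma1 and the noncoding Kcnq1ot1), beside 7.72% of all features. In whole explants, fewer cells of a type and less RNA per cell cannot be told apart. Between day 22 and day 10 only Kcnh6 fell, beside 1.43% of all features. None rose, beside 0.477% of all features, while 2 rose with the array files' batches alone (limma). At an unadjusted p under 0.05, 1 channel gene was higher and 16 were lower, beside 1718 and 2150 of all 22844 features. Whatever their p, 46 of the 62 genes were lower at day 22 than at day 10, beside 12354 of all features. Between day 22 and day 0, 7 rose, beside 12.6% of all features: Kcnab1, Kcnip4, Kcnk1, Kcnk6, Kcnk13, Kcnmb1 and Kcnn3. In that comparison 13 fell, beside 18.6% of all features: Kcna6, Kcnc1, Kcnc4, Kcng1, Kcnh3, Kcnh5, Kcnh6, Kcnh8, Kcnk3, Kcnk4, Kcnk16, Kcnma1 and Kcnq5. The share of channel genes that changed lay near that of all features in each direction, at 11.3% higher and 21.0% lower between day 22 and day 0. The median difference of the 62 genes was 0.012 between day 10 and day 0, against -0.059 over all features. It was -0.29 between day 22 and day 10, against -0.021, and -0.25 between day 22 and day 0, against -0.084. Kcng1, Kcnh5, Kcnh6 and Kcnk3 were well above background on only 2 to 4 of the 6 day 22 arrays, and Kcnmb1 on 1 of the 6 day 0 arrays. These 5 genes passed the filter on dim probes only through the days at which they were higher, so the filter itself favours their direction. In all, 23 genes changed in at least 1 comparison and 39 in none. The comparisons share arrays, so a gene called in more than 1 of them is not counted as separate evidence.

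With the batch number as a replicate block, under both placements of the arrays, 11 genes rose and 17 fell between day 22 and day 0, beside 13.2% and 20% of all features. The 4 further genes higher in this paired fit were Kcnip3, Kcnn4, Kcns3 and Kcnv1, and the 4 further genes lower were Kcne3, Kcnip1, Kcnn2 and Kcnrg. Of these, Kcne3, Kcnip1 and Kcnn2 were well above background on 3, 5 and 4 of the 6 day 22 arrays. They passed the filter on dim probes only through days at which they were higher than at day 22, so the filter favours their direction too. Between day 10 and day 0 the paired fit gave 7 higher, with Kcns3 and Kcnv1 gained, and 3 lower, with Kcnq1ot1 lost, beside 7.23% and 8.61%. Between day 22 and day 10 it gave 0 higher and 3 lower, where Kcnab3 and Kcng1 joined Kcnh6, beside 1.27% and 1.67%. The array-file placement alone is less favoured by the spread between arrays. It gave 8 higher and 7 lower between day 10 and day 0, beside 11.4% and 17.9% of all features. It gave 2 and 6 between day 22 and day 10, beside 4.18% and 5.43%, and 11 and 21 between day 22 and day 0, beside 17.1% and 27.3%. In the fits without a batch, the batch of a given number and day was left out in each placement, so the arrays dropped differ between the placements. The difference printed is then that of the array-file placement, and the adjusted p is the larger of the 2. Of the 20 genes called between day 22 and day 0, 7 kept the call whichever single batch number of any day was left out: Kcnab1, Kcng1, Kcnh6, Kcnh8, Kcnk3, Kcnk6 and Kcnma1. The other 13, and all 9 called between day 10 and day 0, lost it in at least 1 such fit, and those between day 10 and day 0 stood in 3 to 7 of the 9. With the slide as a block, 29 of the 30 calls held, and within slides 1 and 2 alone, which hold all 3 days, each of the 30 differences kept its direction.

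Markers of several cell types moved over the same days. Over all features, 12.6% rose and 18.6% fell between day 22 and day 0, and 5.74% rose between day 10 and day 0. Between day 22 and day 0, the share of sensory neuron markers that fell (15.4%) lay near that background. So did the share of mural and smooth muscle markers that rose (14.3%). All 18 pan-neuronal markers and all 9 Schwann lineage markers passed the filter on dim probes. The mean level of the pan-neuronal markers ran from 3.40 to 4.40 over the day 0 arrays, 4.03 to 4.47 at day 10 and 3.37 to 4.09 at day 22, and 6 of 18 fell between day 22 and day 0. Of 13 tested sensory neuron markers, with Mrgprd and Drgx untested, 2 fell in that comparison. Of 12 myelinating Schwann cell markers, 7 rose between day 22 and day 0 and 8 between day 10 and day 0, with means of 2.79 to 3.38 at day 0, 4.38 to 4.95 at day 10 and 3.37 to 4.94 at day 22. Of 9 Schwann lineage markers 3 fell, and of 9 satellite glia markers, Kcnj10 among them, 4 rose and 2 fell. Macrophage markers rose in 13 of 14 cases, with means of -0.74 to 1.02 at day 0, 1.16 to 2.52 at day 10 and 2.31 to 4.46 at day 22. Markers of dividing cells fell in 9 of 9 tested cases, with Aurkb untested and means of 1.78 to 2.25, 0.35 to 0.99 and -2.58 to -0.51. Endothelial markers gave 2 higher and 1 lower of 8 tested, with Tek and Tie1 untested. Mural and smooth muscle markers gave 1 higher of 7 tested, with Myh11, Des and Rgs5 untested, and fibroblast markers 2 higher and 3 lower of 10. Whether these shifts have a part in the differences of any channel gene was not tested.

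**Figure D2:**
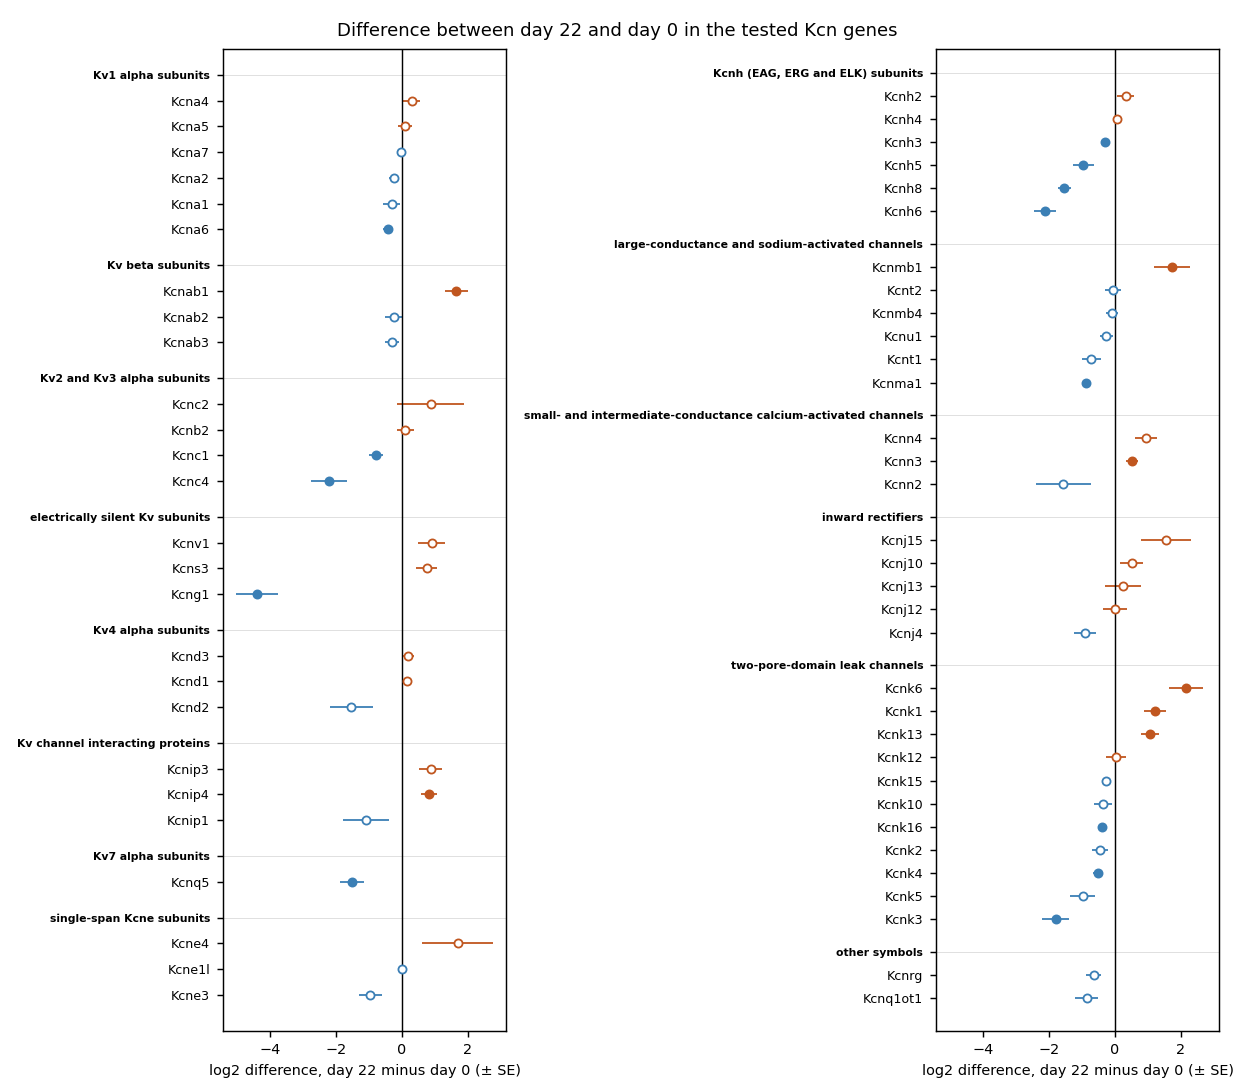
Log2 difference between day 22 and day 0 (horizontal axis, with its SE) for 59 tested genes, grouped by subunit class. Filled points passed the test with both batch placements, orange points are higher and blue points lower at day 22; Kcng1 lies farthest to the left and Kcnk6 farthest to the right.

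Promoters are shown for the called genes with the widest falls (Kcnc4 and Kcnh6) and rises (Kcnmb1 and Kcnk1) between day 22 and day 0 that have 1 promoter in the RefSeq table, to set side by side what the genes that moved each way carry upstream. Kcnh6 and Kcnmb1 are among the genes that the filter favours. Each stretch runs from 250 bases before to 50 bases after the gene's start on build GRCm38.p6, 5′ to 3′ on the strand of the gene, and capitals mark a match to any of 7 motifs on either strand.
Kcnc4 promoter (chr3:107458849-107459148, minus strand): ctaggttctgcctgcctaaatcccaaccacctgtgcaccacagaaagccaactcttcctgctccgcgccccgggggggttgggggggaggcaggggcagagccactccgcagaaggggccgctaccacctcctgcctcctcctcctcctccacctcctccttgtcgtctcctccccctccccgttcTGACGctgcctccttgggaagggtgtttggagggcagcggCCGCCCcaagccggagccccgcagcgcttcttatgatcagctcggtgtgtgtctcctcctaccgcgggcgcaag
Kcnh6 promoter (chr11:106007898-106008197, plus strand): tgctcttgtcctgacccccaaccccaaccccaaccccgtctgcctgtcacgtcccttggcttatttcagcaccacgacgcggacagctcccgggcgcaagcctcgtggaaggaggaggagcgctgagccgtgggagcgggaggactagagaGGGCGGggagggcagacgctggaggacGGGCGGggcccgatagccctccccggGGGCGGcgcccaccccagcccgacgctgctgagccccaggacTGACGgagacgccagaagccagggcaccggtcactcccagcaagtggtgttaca
Kcnmb1 promoter (chr11:33962763-33963062, plus strand): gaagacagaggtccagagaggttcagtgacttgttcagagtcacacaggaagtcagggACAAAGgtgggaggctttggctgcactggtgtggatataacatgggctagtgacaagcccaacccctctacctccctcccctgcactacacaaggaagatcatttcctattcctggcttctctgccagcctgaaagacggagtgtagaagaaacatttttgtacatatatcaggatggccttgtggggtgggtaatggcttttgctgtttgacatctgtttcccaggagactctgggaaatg
Kcnk1 promoter (chr8:125994852-125995151, plus strand): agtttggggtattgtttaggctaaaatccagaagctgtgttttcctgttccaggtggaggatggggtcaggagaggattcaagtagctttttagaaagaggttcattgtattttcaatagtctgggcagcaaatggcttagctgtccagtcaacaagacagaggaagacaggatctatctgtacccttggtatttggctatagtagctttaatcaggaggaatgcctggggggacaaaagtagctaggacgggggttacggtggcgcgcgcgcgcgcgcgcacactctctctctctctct
The motifs searched were the half-site of the cAMP response element, spelled TGACG, and the site of AP-1 factors, spelled TGANTCA. The GC box was spelled GGGCGG, and the site of SOX factors was taken as ACAAAG. For the myeloid factor PU.1 the letters were GAGGAAGT, for the TATA box they were TATAAA, and for the E-box of helix-loop-helix factors they were CACGTG. No printed matches share bases. Kcnc4 and Kcnh6 each hold TGACG and the GC box, Kcnmb1 holds ACAAAG, and Kcnk1 holds none of the 7. Of 11 promoters of 10 genes that fell between day 22 and day 0, 6 held TGACG and 7 the GC box. Of 9 promoters of 6 genes that rose, 0 held TGACG and 1 the GC box. The shares over all 32851 promoters of this length were 20.8% for TGACG and 35.7% for the GC box, and over the 95 promoters of 70 Kcn genes they were 20% and 47.4%. ACAAAG was in 3 of the 9 promoters of genes that rose and 0 of the 11 of genes that fell, against 18.7% of all promoters. TATAAA was in 1 of those 9 and 0 of those 11, against 13.6%. CACGTG was in 2 of 9 and 0 of 11, against 7.15%. TGANTCA was in 1 of 9 and 0 of 11, against 7.81%, and GAGGAAGT was in none of the 95 Kcn promoters, against 3.2%. Over the 95 Kcn promoters, the shares were 14.7% for the SOX site, 5.26% for the TATA box, 7.37% for the E-box and 4.21% for the AP-1 site. The median G and C content was 65.3% in the promoters of genes that fell and 50.3% in those of genes that rose. It was 52.7% over all promoters and 58% over the 95 Kcn promoters. These are counts of letters in few promoters, several genes have more than 1, and no factor's binding was measured.

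Among the 6 tested Kv1 pore subunits, the channels that lie beside the node in myelinated axons, only Kcna6 changed. Its fall between day 22 and day 0 was small and stands beside 18.6% of all features that fell. Kcna6 (Kv1.6) had levels of 7.01 to 7.25 with a median of 7.11 on the day 0 arrays, 6.74 to 7.14 with a median of 6.90 on the day 10 arrays and 6.15 to 6.94 with a median of 6.80 on the day 22 arrays. Its day 22 arrays all lay below its day 0 arrays, with a difference of -0.43 ± 0.15 on the log2 scale (SE, 3 batches a day, adjusted p = 0.0428), and a second, dimmer probe differed by -0.70. The call was lost without the day 0 array that was lowest in neuronal markers, at a difference of -0.44 (adjusted p = 0.0507), and it stood in 1 of 9 fits that each left out 1 batch of 1 day. Kcna1 (Kv1.1) had levels of 5.84 to 6.42 with a median of 6.06 on the day 0 arrays, 5.59 to 6.13 with a median of 5.92 on the day 10 arrays and 4.72 to 6.35 with a median of 5.96 on the day 22 arrays. The ranges overlap, and the lowest day 22 value comes from the array that was also lowest in Kcnj10. The difference between day 22 and day 0 was -0.32 ± 0.25 (95% interval -0.89 to 0.25, adjusted p = 0.358). Kcna2 (Kv1.2), the usual partner of Kcna1 beside the node, had levels of 1.85 to 2.37 with a median of 2.31 on the day 0 arrays, 1.76 to 2.34 with a median of 2.16 on the day 10 arrays and 1.75 to 2.18 with a median of 1.99 on the day 22 arrays. Its difference was -0.25 ± 0.14 (95% interval -0.58 to 0.072, adjusted p = 0.202), and the intervals of Kcna1 and Kcna2 both hold 0. Kcna4 (Kv1.4), an A-type subunit of small sensory neurons, had levels of 0.44 to 0.83 with a median of 0.64 on the day 0 arrays, 0.27 to 0.65 with a median of 0.38 on the day 10 arrays and 0.36 to 2.07 with a median of 0.81 on the day 22 arrays. Its highest day 22 value, 2.07, stood on the array that was lowest in Kcna1, and its difference of 0.29 ± 0.27 did not pass (adjusted p = 0.434). Kcna5 and Kcna7 differed by 0.090 and -0.041 between day 22 and day 0 without passing, and a second probe of each had the opposite sign. Kcna5, Kcna1 and Kcna6 are neighbours on chromosome 6.

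The Kv beta subunits bind Kv1 channels from the cytoplasm, and of the 3 genes Kcnab1 rose while the others did not pass. Over all features, 5.74% rose between day 10 and day 0 and 12.6% between day 22 and day 0. Kcnab1 had levels of -1.56 to 0.86 with a median of -0.19 on the day 0 arrays, 0.74 to 1.66 with a median of 1.41 on the day 10 arrays and 0.93 to 1.59 with a median of 1.39 on the day 22 arrays. Every day 22 array lay above every day 0 array, and a single day 10 array reached below the highest day 0 array. The difference was 1.65 ± 0.35 between day 10 and day 0 (3.13-fold higher, adjusted p = 0.022) and 1.65 ± 0.35 between day 22 and day 0 (adjusted p = 0.00938), and the day 22 and day 10 means differed by 0.0039. Within the 2 slides that hold all 3 days, the day 22 difference was 1.58 on slide 1 and 2.09 on slide 2. Without the day 0 array lowest in neuronal markers, the day 10 difference was 1.74 and no longer passed (adjusted p = 0.0647). Kcnab2, the main beta subunit of neuronal Kv1 channels, had levels of -3.66 to -2.08 with a median of -2.56 on the day 0 arrays, -2.45 to -1.82 with a median of -2.14 on the day 10 arrays and -3.58 to -2.30 with a median of -2.98 on the day 22 arrays. The differences were 0.54 ± 0.27 between day 10 and day 0 (adjusted p = 0.215) and -0.24 ± 0.27 between day 22 and day 0 (adjusted p = 0.521). Kcnab3 differed by -0.31 ± 0.21 between day 22 and day 0 (adjusted p = 0.3), and its -0.55 ± 0.21 between day 22 and day 10 passed only in the paired fit.

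**Figure D3:**
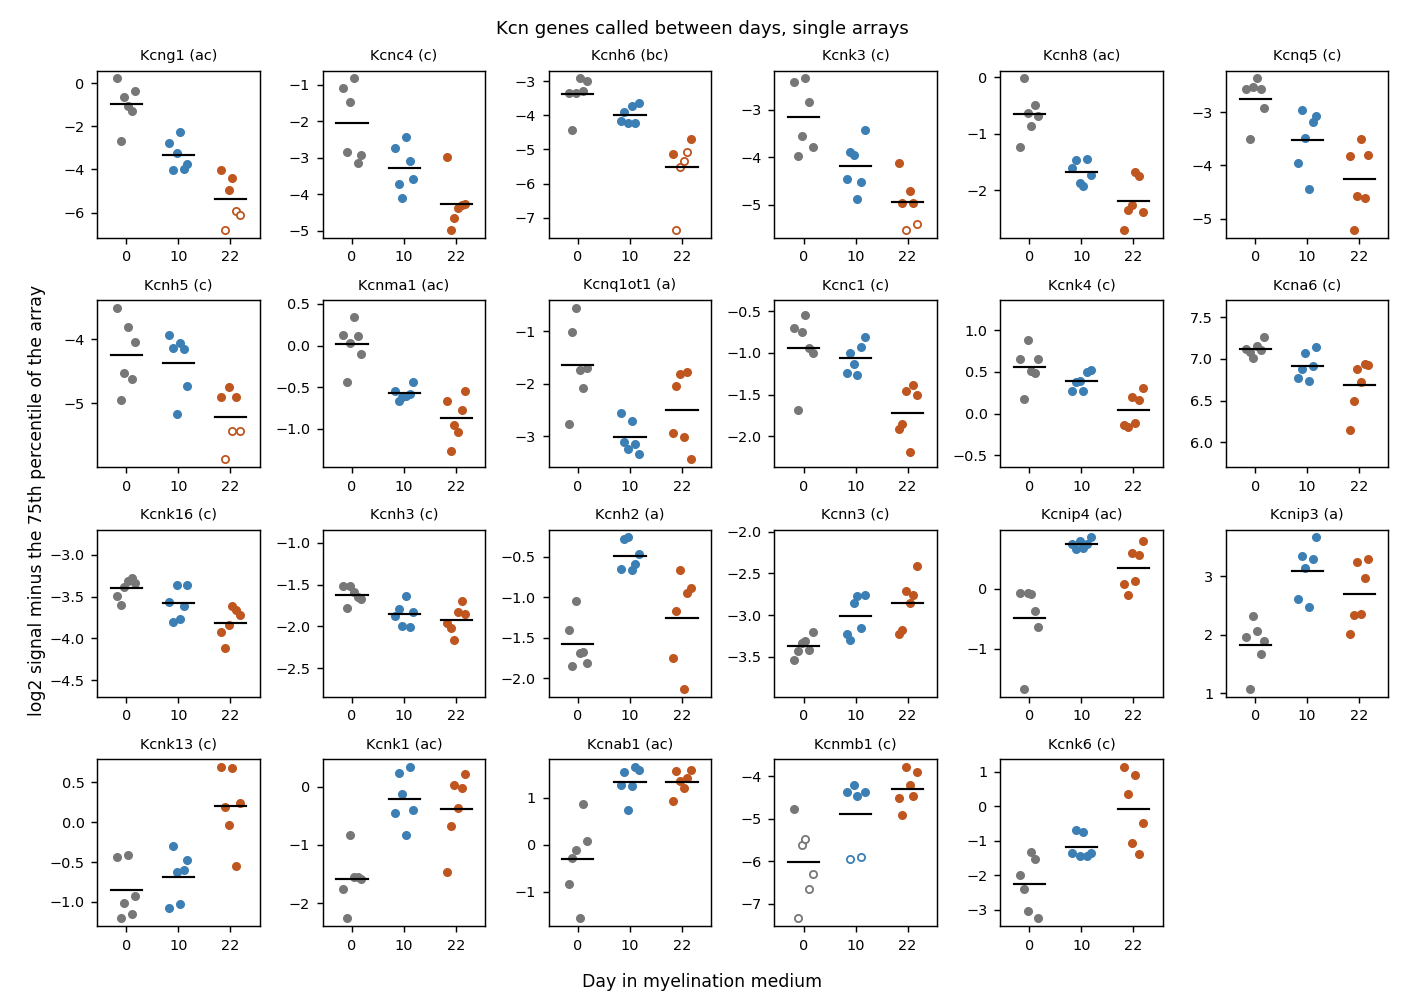
Log2 level minus the array's 75th percentile (vertical axis) on each of 6 arrays at days 0, 10 and 22 (horizontal axis) for the 23 genes called in at least 1 comparison, ordered by the difference between day 22 and day 0. Bars are day means, open points were not well above background, and letters mark the comparison that passed (a, day 10 against day 0; b, day 22 against day 10; c, day 22 against day 0). Kcng1 and Kcnh6 have open points at day 22 only, and Kcnmb1 has them at days 0 and 10.

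Kv2 channels carry delayed rectifier current at the soma and Kv3 channels sharpen the action potential. None of these 6 genes rose, and the Kv3 genes Kcnc1 and Kcnc4 fell between day 22 and day 0. Over all features, 12.6% rose and 18.6% fell in that comparison. Kcnc4 (Kv3.4) had levels of -3.15 to -0.82 with a median of -2.16 on the day 0 arrays, -4.09 to -2.44 with a median of -3.33 on the day 10 arrays and -4.98 to -2.97 with a median of -4.34 on the day 22 arrays. It was lower by 4.64-fold at day 22 than at day 0, a difference of -2.21 ± 0.53 (adjusted p = 0.0158), although the highest day 22 array reached into the day 0 range. The call was lost without batch 2 of day 22, at -2.09 (adjusted p = 0.0503). With normexp background correction, which shrinks differences between dim signals, the difference was -1.25 (adjusted p = 0.0206). Kcnc1 (Kv3.1) had levels of -1.69 to -0.54 with a median of -0.85 on the day 0 arrays, -1.27 to -0.81 with a median of -1.07 on the day 10 arrays and -2.19 to -1.39 with a median of -1.68 on the day 22 arrays. The difference was -0.78 ± 0.21 between day 22 and day 0 (adjusted p = 0.0229), the day 22 arrays lay below all day 10 arrays, and 2 further probes were lower as well. Kcnb2 (Kv2.2) had medians of -1.89, -1.51 and -1.84 at days 0, 10 and 22, and its differences of 0.49 ± 0.25 and 0.10 ± 0.25 from day 0 did not pass. Kcnc2 did not pass in any comparison. It was well above background on 3 of 6 arrays at day 0, and its difference of 0.87 ± 1.02 has a 95% interval of -1.48 to 3.22.

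Kcng1 (Kv6.1) showed the widest difference of all 62 genes. It is an electrically silent subunit that forms channels only together with Kv2. Its levels were -2.71 to 0.22 with a median of -0.85 on the day 0 arrays, -4.05 to -2.27 with a median of -3.50 on the day 10 arrays and -6.81 to -4.05 with a median of -5.45 on the day 22 arrays. Every day 22 array lay below every day 0 array, and 3 of the 6 day 22 arrays were not well above background. The difference was -2.37 ± 0.64 between day 10 and day 0 (adjusted p = 0.0462) and -4.40 ± 0.64 between day 22 and day 0 (21.2-fold lower, adjusted p = 0.00192). The day 22 difference was -4.49 within slide 1 and -4.59 within slide 2. The day 22 signal was near background, and with normexp background correction the difference between day 22 and day 0 was -2.19 (adjusted p = 0.00141). The day 10 call did not hold with quantile normalization, at a difference of -2.30 (adjusted p = 0.0545). Of the other silent subunits, Kcns3 (Kv9.3) had levels of -3.69 to -1.61 with a median of -2.03 on the day 0 arrays, -1.82 to -1.26 with a median of -1.56 on the day 10 arrays and -2.24 to -1.13 with a median of -1.68 on the day 22 arrays. The 3 lowest day 0 arrays lie below all later arrays, and the differences of 0.86 ± 0.33 and 0.75 ± 0.33 from day 0 did not pass (adjusted p = 0.117 and 0.118), while both passed in the paired fit (adjusted p = 0.0459 and 0.0477). Kcnv1 (Kv8.1) differed by 1.41 ± 0.40 between day 10 and day 0 (adjusted p = 0.0527) and 0.90 ± 0.40 between day 22 and day 0 (adjusted p = 0.119), and both passed in the paired fit (adjusted p = 0.00999 and 0.0142).

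Kv4 pore subunits carry A-type current, and the Kv channel interacting proteins bind them and speed their recovery. Of the 3 tested interacting proteins 2 rose between day 10 and day 0, beside 5.74% of all features, and of the 3 Kv4 genes 0 passed in limma. The difference between these classes was not tested. Kcnip4 had levels of -1.67 to -0.066 with a median of -0.23 on the day 0 arrays, 0.67 to 0.86 with a median of 0.74 on the day 10 arrays and -0.11 to 0.80 with a median of 0.35 on the day 22 arrays. All day 10 arrays lay above all day 0 arrays and close together. The difference was 1.23 ± 0.24 between day 10 and day 0 (2.35-fold higher, adjusted p = 0.0173) and 0.83 ± 0.24 between day 22 and day 0 (adjusted p = 0.0328), and the second call stood in 2 of the 9 fits without a batch. Kcnip3 (also known as DREAM, a calcium-binding repressor of transcription) had levels of 1.07 to 2.33 with a median of 1.92 on the day 0 arrays, 2.47 to 3.67 with a median of 3.21 on the day 10 arrays and 2.02 to 3.29 with a median of 2.65 on the day 22 arrays. Its day 10 arrays lay above all day 0 arrays, with a difference of 1.26 ± 0.34 (adjusted p = 0.0457), and its day 22 difference from day 0 of 0.87 ± 0.34 did not pass (adjusted p = 0.0831) other than in the paired fit (adjusted p = 0.0493). Both genes have a dimmer second probe with the same sign, and with the mean of its probes Kcnip3 differed by 0.96 at day 10 and did not pass (adjusted p = 0.0676). Kcnip1 had medians of -1.72, -1.59 and -2.62 at days 0, 10 and 22, with a difference of -1.09 ± 0.69 between day 22 and day 0 (adjusted p = 0.253), which passed in the paired fit (adjusted p = 0.0196). At day 22, 5 of its 6 arrays were well above background. Of the Kv4 genes, Kcnd1 had levels of 0.82 to 1.04 with a median of 0.98 on the day 0 arrays, 1.05 to 1.28 with a median of 1.18 on the day 10 arrays and 0.94 to 1.27 with a median of 1.12 on the day 22 arrays. Its day 10 and day 0 arrays do not overlap, yet the difference is small, 0.22 ± 0.088, and did not pass (adjusted p = 0.0913). Kcnd3 (Kv4.3) had levels of 0.43 to 1.36 at day 0, 1.02 to 1.76 at day 10 and 0.97 to 1.39 at day 22, and the 95% interval of its difference between day 22 and day 0 is -0.20 to 0.58. Kcnd2 differed by -1.54 ± 0.66 (adjusted p = 0.106).

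Kv7 channels carry the M-current, which brakes repetitive firing and, in axons, sits at the node. Of 5 Kv7 genes 2 were tested, and Kcnq5 fell between day 22 and day 0, beside 18.6% of all features. It had levels of -3.51 to -2.36 with a median of -2.57 on the day 0 arrays, -4.44 to -2.95 with a median of -3.34 on the day 10 arrays and -5.22 to -3.50 with a median of -4.21 on the day 22 arrays. The lowest day 0 array lay just below the highest day 22 array, and the difference was -1.51 ± 0.37 between day 22 and day 0 (2.85-fold lower, adjusted p = 0.0172). With normexp background correction, which shrinks differences between dim signals, it was -0.65 (adjusted p = 0.0153). Of the 9 fits that each left out 1 batch of 1 day, only the one without batch 3 of day 0 lost the call, at -1.52 (adjusted p = 0.0506). Of the single-span Kcne subunits, which modify Kv channels, none passed without the block: Kcne3 differed by -0.96 ± 0.34 between day 22 and day 0 (adjusted p = 0.0502, and 0.00963 in the paired fit, where it passed) and Kcne4 by 1.70 ± 1.08 (adjusted p = 0.256). Kcne3 was well above background on 6 arrays at day 0, 3 at day 10 and 3 at day 22. The probes of Kcne1l disagree. Its brightest probe differed by -0.0065 between day 22 and day 0, and a dimmer one by -2.34, with 6, 5 and 1 arrays well above background at days 0, 10 and 22.

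The Kcnh genes encode the EAG, ERG and ELK channels, and 4 of 6 tested fell between day 22 and day 0, a share to be read beside 18.6% of all features and with only 6 genes. Kcnh6 (ERG2) had levels of -4.42 to -2.91 with a median of -3.31 on the day 0 arrays, -4.23 to -3.63 with a median of -4.04 on the day 10 arrays and -7.36 to -4.68 with a median of -5.24 on the day 22 arrays. Every day 22 array lay below every earlier array, and only 2 of 6 were well above background. The difference was -1.54 ± 0.33 between day 22 and day 10 (adjusted p = 0.0478) and -2.13 ± 0.33 between day 22 and day 0 (adjusted p = 0.00173). The call between day 22 and day 10 stood in 1 of 9 fits without a batch and was lost with the authors' values, at -1.56 (adjusted p = 0.0514). With normexp background correction the differences were -0.46 between day 22 and day 10 (adjusted p = 0.0575) and -0.66 between day 22 and day 0 (adjusted p = 0.00326). Kcnh8 (ELK1) had levels of -1.23 to -0.013 with a median of -0.65 on the day 0 arrays, -1.93 to -1.45 with a median of -1.66 on the day 10 arrays and -2.70 to -1.68 with a median of -2.30 on the day 22 arrays. The day 10 and day 22 arrays all lay below the day 0 arrays, with a difference of -1.02 ± 0.20 (adjusted p = 0.0166) and -1.54 ± 0.20 (adjusted p = 0.00112), and a second probe differed by -1.73 between day 22 and day 0. Kcnh5 (EAG2) had levels of -4.94 to -3.51 with a median of -4.29 on the day 0 arrays, -5.16 to -3.94 with a median of -4.15 on the day 10 arrays and -5.87 to -4.75 with a median of -5.17 on the day 22 arrays, with 3 of 6 day 22 arrays well above background, and differed by -0.97 ± 0.32 (adjusted p = 0.0478). Kcnh3 (ELK2) differed by -0.29 ± 0.090 between day 22 and day 0 (adjusted p = 0.0369), from levels of -2.16 to -1.69 with a median of -1.91 at day 22 against -1.78 to -1.52 with a median of -1.62 at day 0. The calls of Kcnh3 and Kcnh5 stood in 1 and 2 of the 9 fits without a batch, and with normexp background correction their differences were -0.15 (adjusted p = 0.144) and -0.24 (adjusted p = 0.175). Kcnh2 (ERG1) was the 1 gene of the class that rose, and only at day 10. It had levels of -1.84 to -1.05 with a median of -1.68 on the day 0 arrays, -0.67 to -0.26 with a median of -0.53 on the day 10 arrays and -2.13 to -0.67 with a median of -1.06 on the day 22 arrays. The day 10 arrays lay above all day 0 arrays, with a difference of 1.09 ± 0.27 (adjusted p = 0.0348), and the day 22 arrays lay below all day 10 arrays without passing (difference -0.77 ± 0.27, adjusted p = 0.182). Kcnh4 had a 95% interval of -0.24 to 0.36 for its difference between day 22 and day 0.

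Kcnma1, the pore of the large-conductance BK channel that calcium and voltage open together, fell at both later days. Its levels were -0.44 to 0.35 with a median of 0.072 on the day 0 arrays, -0.66 to -0.44 with a median of -0.59 on the day 10 arrays and -1.26 to -0.54 with a median of -0.86 on the day 22 arrays. All day 22 arrays lay below all day 0 arrays, and the day 10 arrays met only the lowest of day 0. The difference was -0.59 ± 0.12 between day 10 and day 0 (adjusted p = 0.0201) and -0.89 ± 0.12 between day 22 and day 0 (1.85-fold lower, adjusted p = 0.00143), and a second probe differed by -1.08. Kcnmb1, the BK beta subunit of smooth muscle, was higher at day 22 than at day 0, when it was near background. It was well above background on 1 array at day 0, 4 at day 10 and 6 at day 22. Its levels were -7.34 to -4.77 with a median of -5.95 on the day 0 arrays, -5.95 to -4.21 with a median of -4.43 on the day 10 arrays and -4.92 to -3.78 with a median of -4.33 on the day 22 arrays. At day 22 against day 0 the difference was 1.73 ± 0.56 (adjusted p = 0.0448), and it stood in 2 of the 9 fits without a batch. With normexp background correction it was 0.39 (adjusted p = 0.0454). Between day 22 and day 10 the difference of Kcnmb1 was 0.58 ± 0.56 and did not pass (limma, adjusted p = 0.629). Kcnmb4, the neuronal BK beta subunit, had medians of 4.27, 4.18 and 4.28, and its difference between day 22 and day 0 has a 95% interval of -0.52 to 0.34. Kcnt1 (Slack, opened by sodium) had levels of -0.78 to 0.85 with a median of 0.49 on the day 0 arrays, 0.0053 to 0.39 with a median of 0.26 on the day 10 arrays and -1.09 to -0.12 with a median of -0.39 on the day 22 arrays. The difference of -0.72 ± 0.29 between day 22 and day 0 did not pass (adjusted p = 0.0943), and without the day 0 array lowest in neuronal markers it was -0.97 (adjusted p = 0.0257). Kcnt2 and Kcnu1 did not pass in any comparison.

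Of the small- and intermediate-conductance channels, which calcium opens through calmodulin, Kcnn3 (SK3) rose between day 22 and day 0. Its levels were -3.53 to -3.20 with a median of -3.37 on the day 0 arrays, -3.29 to -2.76 with a median of -3.00 on the day 10 arrays and -3.23 to -2.42 with a median of -2.80 on the day 22 arrays. The difference was 0.51 ± 0.17 (adjusted p = 0.0405), 1 day 22 array reached into the day 0 range, and the call stood in 2 of the 9 fits without a batch. Kcnn4, the intermediate-conductance channel known from blood and immune cells and fibroblasts, had levels of -1.60 to 0.12 with a median of -0.81 on the day 0 arrays, -0.80 to 0.064 with a median of -0.32 on the day 10 arrays and -0.23 to 0.86 with a median of 0.13 on the day 22 arrays. The difference between day 22 and day 0 was 0.93 ± 0.33 (95% interval 0.18 to 1.69, adjusted p = 0.061), and it passed in the paired fit (adjusted p = 0.00545). Kcnn2 differed by -1.57 ± 0.84 without passing (adjusted p = 0.183) and passed in the paired fit (adjusted p = 0.0395), with 4 of 6 arrays well above background at day 22.

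None of the 5 tested inward rectifiers passed in any comparison (limma), beside 12.6% of all features higher and 18.6% lower between day 22 and day 0. With 5 genes this is not read as a trait of the class. Kcnj10, the satellite glia channel, had levels of 3.94 to 4.61 with a median of 4.42 on the day 0 arrays, 5.09 to 5.48 with a median of 5.30 on the day 10 arrays and 3.41 to 5.47 with a median of 5.23 on the day 22 arrays. Every day 10 array lay above every day 0 array, while the day 22 arrays ran from below the whole day 0 range to near the top of the day 10 range. The difference between day 10 and day 0 was 0.93 ± 0.34 (95% interval 0.14 to 1.72, adjusted p = 0.107). The array-file placement alone, less favoured by the spread between arrays, gave an adjusted p of 0.0212 (limma). For day 22 against day 0 the difference was 0.50 ± 0.34 (adjusted p = 0.294). Leaving out the day 22 array that was lowest in Kcna1 and Kcnj10, which also changes the common spread, the day 10 difference was 0.93 with an adjusted p of 0.0345, and the day 22 difference was 0.80 with an adjusted p of 0.056. That array was picked after its low Kcnj10 level was seen. The smaller adjusted p-values follow in part from that choice and are no separate test of Kcnj10. Kcnj12 (Kir2.2), a strong rectifier, had levels of -2.01 to -0.51 with a median of -0.93 on the day 0 arrays, -1.43 to -0.73 with a median of -0.95 on the day 10 arrays and -1.90 to -0.42 with a median of -0.93 on the day 22 arrays. The 95% interval of its difference between day 22 and day 0 was -0.81 to 0.81. Kcnj4 differed by -0.92 ± 0.33 (adjusted p = 0.0624) and Kcnj15 by 1.53 ± 0.76 (adjusted p = 0.137). The 2 kept probes of Kcnj13 agree in sign at day 22 against day 0 and disagree at day 10 against day 0.

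**Figure D4:**
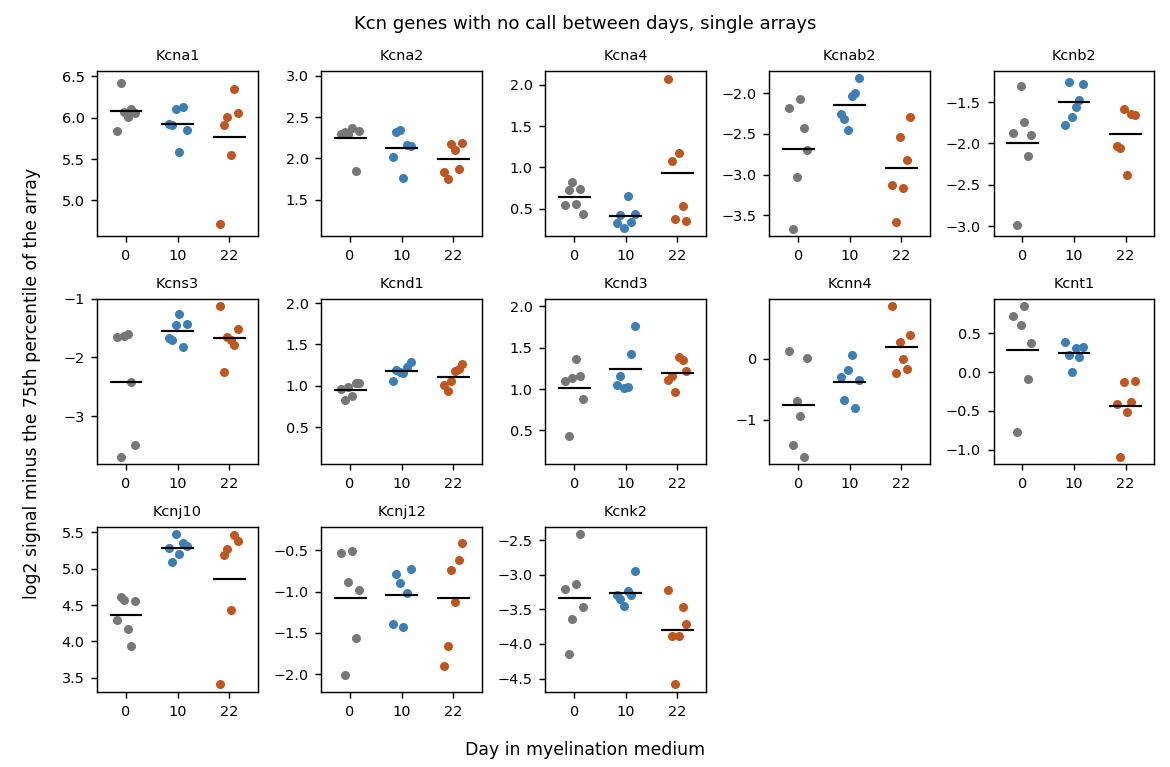
Log2 level minus the array's 75th percentile (vertical axis) on each of 6 arrays at days 0, 10 and 22 (horizontal axis) for 13 genes that passed in no comparison, among them the Kv1 subunits Kcna1 and Kcna2. Bars are day means; the same day 22 array is lowest in Kcna1 and Kcnj10 and highest in Kcna4.

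The two-pore-domain genes, whose channels carry background leak current, gave 3 that rose and 3 that fell between day 22 and day 0 of 11 tested, beside 12.6% and 18.6% of all features. Kcnk6 (TWIK2) had levels of -3.25 to -1.32 with a median of -2.18 on the day 0 arrays, -1.43 to -0.69 with a median of -1.36 on the day 10 arrays and -1.39 to 1.16 with a median of -0.070 on the day 22 arrays. The difference between day 22 and day 0 was 2.16 ± 0.52 (4.48-fold higher, adjusted p = 0.0151), the widest rise among the 62 genes. It was 3.36 within slide 1 and 1.56 within slide 2, and the lowest day 22 array met the day 0 range. Kcnk13 (THIK-1), known as a leak channel of microglia, had levels of -1.21 to -0.41 with a median of -0.97 on the day 0 arrays, -1.08 to -0.29 with a median of -0.61 on the day 10 arrays and -0.55 to 0.70 with a median of 0.22 on the day 22 arrays. Day 22 and day 0 differed by 1.06 ± 0.28 (adjusted p = 0.0223) and days 10 and 0 by 0.17 ± 0.28 (adjusted p = 0.712). Kcnk1 (TWIK1) had levels of -2.26 to -0.83 with a median of -1.57 on the day 0 arrays, -0.83 to 0.35 with a median of -0.26 on the day 10 arrays and -1.47 to 0.21 with a median of -0.19 on the day 22 arrays. Its day 10 arrays lay just above the top of the day 0 range, a difference of 1.39 ± 0.32 (2.61-fold higher, adjusted p = 0.0295), and the difference between day 22 and day 0 was 1.21 ± 0.32 (adjusted p = 0.0229). Macrophage markers rose in 13 of 14 cases over the same days as Kcnk6 and Kcnk13, and their part in these differences was not tested. Within slide 1 the day 22 difference of Kcnk1 was 0.35, against 1.48 within slide 2.

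Kcnk3 (TASK1, closed by acid) fell most among the called two-pore-domain genes. Its levels were -3.96 to -2.33 with a median of -3.20 on the day 0 arrays, -4.87 to -3.43 with a median of -4.21 on the day 10 arrays and -5.53 to -4.11 with a median of -4.96 on the day 22 arrays, and 4 of 6 day 22 arrays were well above background. All day 22 arrays lay below all day 0 arrays, with a difference of -1.80 ± 0.40 (3.48-fold lower, adjusted p = 0.0118), and of -0.74 with normexp background correction (adjusted p = 0.0131). Kcnk4 (TRAAK, opened by stretch and known at nodes of Ranvier) had levels of 0.18 to 0.88 with a median of 0.58 on the day 0 arrays, 0.27 to 0.52 with a median of 0.38 on the day 10 arrays and -0.17 to 0.31 with a median of 0.028 on the day 22 arrays. Its fall between day 22 and day 0 came to -0.52 ± 0.14 (adjusted p = 0.0245), with a second probe at -0.73. Kcnk16 (TALK1) fell by 0.41 on the log2 scale with an SE of 0.11 (adjusted p = 0.0218), and its day 22 arrays, -4.11 to -3.61 with a median of -3.78, lay below its day 0 arrays, -3.60 to -3.28 with a median of -3.36. With normexp background correction its difference was -0.19 and did not pass (adjusted p = 0.128). Kcnk2 (TREK1), a stretch-sensitive channel related to Kcnk4 and also known at nodes, had levels of -4.15 to -2.41 with a median of -3.34 on the day 0 arrays, -3.45 to -2.95 with a median of -3.29 on the day 10 arrays and -4.59 to -3.23 with a median of -3.80 on the day 22 arrays. Its difference between day 22 and day 0 was -0.46 ± 0.23 (95% interval -0.98 to 0.067, adjusted p = 0.14). Kcnk5, a neighbour of Kcnk16 on chromosome 14, had day 10 arrays wholly below its day 0 arrays, yet its difference of -1.07 ± 0.37 did not pass (adjusted p = 0.0867). Kcnk10, Kcnk12 and Kcnk15 did not pass in any comparison.

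Of the symbols that are not channel subunits, Kcnq1ot1, the noncoding RNA that silences neighbours of the Kcnq1 locus in imprinting, had levels of -2.77 to -0.55 with a median of -1.73 on the day 0 arrays, -3.35 to -2.57 with a median of -3.13 on the day 10 arrays and -3.44 to -1.77 with a median of -2.49 on the day 22 arrays. It differed by -1.37 ± 0.35 between day 10 and day 0 (adjusted p = 0.0395) and by -0.86 ± 0.35 between day 22 and day 0 (adjusted p = 0.0954). The day 10 call was lost in the paired fit and, with normexp background correction, the difference was -0.85 (adjusted p = 0.0468). The call was also lost without the day 0 array lowest in neuronal markers, where the difference was -1.08 (adjusted p = 0.0648). Kcnrg differed by -0.65 ± 0.23 between day 22 and day 0 (adjusted p = 0.0602) and passed in the paired fit (adjusted p = 0.0335).

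The proteins that assemble with, anchor or sort these channels, and the related Hcn channels, were followed as a list of 29 genes, 25 of them tested. Between day 10 and day 0, 1 rose, Dlg2, beside 5.74% of all features, and no other passed (limma). At an unadjusted p under 0.05, 4 were higher and 3 lower, beside 2756 and 4149 of all 22844 features. Between day 22 and day 10 none passed in limma, beside 0.477% of all features higher and 1.43% lower. At an unadjusted p under 0.05, 1 was higher and 6 lower, beside 1718 and 2150 of all features. The array-file placement alone called 1 lower, beside 5.43% of all features. Between day 22 and day 0, 1 rose and 6 fell, beside 12.6% and 18.6% of all features. The median difference of the list was 0.012, against -0.084 over all features. At an unadjusted p under 0.05, 1 gene was higher and 8 were lower, beside 3773 and 5985 of all features. Dlg2 (PSD-93), a scaffold that joins Kv1 clusters beside the node, had levels of -4.77 to -3.34 with a median of -3.86 at day 0, -3.38 to -2.68 with a median of -3.11 at day 10 and -4.06 to -3.15 with a median of -3.25 at day 22. The differences from day 0 were 0.88 ± 0.19 at day 10 (adjusted p = 0.0141) and 0.58 ± 0.19 at day 22 (adjusted p = 0.0373). Dpp10, a Kv4 partner, had levels of -3.11 to -2.17 with a median of -2.44 at day 22 against -1.19 to 0.68 with a median of 0.19 at day 0. Its day 22 arrays lay below all day 0 arrays, with a difference of -2.40 ± 0.41 (adjusted p = 0.00377). Abcc8, the sulphonylurea receptor of ATP-sensitive channels, differed by -1.22 ± 0.26 between day 22 and day 0 (adjusted p = 0.0098), and Hcn3 by -0.87 ± 0.18 (adjusted p = 0.00787). Epb41l3, Ank3 and Vapa were the other genes of the list that fell. Cntnap2 and Cntn2, the adhesion proteins that hold Kv1 beside the node, differed by -0.76 ± 0.28 (adjusted p = 0.066) and -0.88 ± 0.38 (adjusted p = 0.0945) without passing.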

How the data were processed

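RNA of 9 samples of explant cultures, 3 batches at each of 3 days, was hybridised to 18 one-colour Agilent arrays, 2 technical arrays each. Per the file headers, the deposited intensity is the processed signal of Agilent Feature Extraction 10.7.1.1 (10.7.1 in the submitters' processing notes), already corrected for background. The authors' deposited value table holds linear intensities with the same distribution in every column, its processing is not given in the sources used here, and it served as an alternative and for its batch labels. Its columns hold the arrays of their own label in 6 of 18 cases and those of another batch of the same day in 12. From the array files, control spots (3671 per array) and outlier spots (93 to 181) were left out, and no spot was saturated. Each array's 75th percentile (584 to 747) was subtracted on the log2 scale. The arrays' genome build is not used here, and RefSeq symbols were given to 26576 of 55681 probes through accessions. Probes well above background on all 6 arrays of 1 day were kept (30420), with the brightest probe for each gene, which left 22844 features.

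The 2 technical arrays of a batch were averaged, and limma 3.58.1 in R 4.3.3 fitted the 9 batch means of all days together, once with each placement of the arrays in batches. A call needs an adjusted p under 0.05 in both. Batch means had a median SD of 0.149 with the array files' batches and 0.178 with those of the value table, against 0.211 and 0.174 between arrays of a batch. Per the series' design text, batches M1 to M3 come from different pools of embryos, and the numbers were taken to pair the days, which that text does not state for cultures of different days. Deviations of batch means from their day mean were correlated between days for batches of the same number. With the array files' batches the correlations ran from -0.13 to 0.37 (6 of 9 above 0.1). With those of the value table they ran from -0.084 to 0.46 (8 of 9). Alternatives covered the batch placement, the replicate block, background correction, normalization, the filter, the probe rule, technical arrays, slides and left-out batches. Normexp started from the median signal, since the files have no mean signal. The genes, gene lists, motifs and tests were chosen with earlier results of these data known. Named with values were all called genes and the tested ones of a list of 28 genes, except that 4 Kcn genes, counted in every total, are not reported here, and of the partner list the called genes with the 4 widest changes. The other genes with values were named after their values were seen.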

Additional observations from a re-analysis of the deposited data

Results flagged for a closer look

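In 7 of 177 groups of 6 arrays (59 genes at 3 days), the highest or lowest array stood apart by Dixon's criterion, where chance alone gives about 1 in 20 groups. At day 0 the lowest arrays stood apart for Kcna2 (level 1.85), Kcnh6 (-4.42) and Kcnip4 (-1.67). The values of Kcnh6 and Kcnip4 come from the day 0 array that was lowest in neuronal markers, and that of Kcna2 from another. At day 22 the lowest arrays stood apart for Kcnh6 (-7.36, not well above background) and Kcnip1 (-4.97), and the highest arrays for Kcna7 (-0.34) and Kcnc4 (-2.97).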

How the results depend on the processing

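No call changed direction under any alternative. Counts are given as higher and lower genes for day 10 against day 0, then day 22 against day 10, then day 22 against day 0, beside 5 and 4, 0 and 1, and 7 and 13. The array-file batches alone, less favoured by the spread between arrays, gave 8 and 7, 2 and 6, and 11 and 21. The replicate block moved the paired counts to 3 lower between day 22 and day 10 and 11 higher between day 22 and day 0, and the value-table batches with the block to 3 and 11. Over all features, the replicate block called 381 lower and 3021 higher in these comparisons. The value-table batches with the block called 397 and 3100, against 327 and 2875 in the main fit. Between day 22 and day 10, normexp, quantile normalization, the authors' values and no filter on dim probes each gave 0 lower. Probes above background on all arrays and the left-out day 22 array gave 0 lower as well. Over all features, these settings called 196 to 379 lower. The slide as a block gave 2, beside 717 features. Requiring probes above background on all arrays leaves Kcng1, Kcnh5, Kcnh6, Kcnk3 and Kcnmb1 untested, so its 0 follows from the setting. Without the filter, 2 rose between day 10 and day 0, beside 837 of 37208 features. First technical arrays alone gave 0 and 0, 0 and 0, and 0 and 6, and second ones 4 and 1, 0 and 0, and 3 and 7. Over all features, first technical arrays called 356 and 261, 11 and 47, and 1573 and 2011. Second ones called 871 and 1265, 17 and 117, and 2189 and 3124. Slide 1 alone gave 0 and 0, 0 and 0, and 2 and 4, and slide 2 alone 0 and 0, 0 and 0, and 2 and 6. Both hold fewer samples. Over all features, slide 1 called 371 and 199, 0 and 0, and 1405 and 1253, and slide 2 called 199 and 155, 0 and 0, and 1181 and 1524. Between day 22 and day 10 no feature passed within either slide, so the 0 of the channel genes says nothing about them. With 1 batch of a day left out, the counts ranged over 0 to 6 and 0 to 4, 0 to 0 and 0 to 1, and 2 to 7 and 6 to 12. Over all features, they ranged over 425 to 1769 and 330 to 2272, 1 to 92 and 7 to 284, and 2137 to 2700 and 2659 to 4282. Fits on fewer arrays have less power; otherwise the cause was not tested. Signal near background limits Kcng1, Kcnh5, Kcnh6, Kcnk3 and Kcnmb1. The samples of a day are 3 pools, and p-values measure only their spread.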
